A study of Mus musculus with 2 samples.

Results

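Levels and joint detection of the lens transcription factors *Sox2*, *Maf*, *Pitx3*, *Foxe3* and *Prox1* were examined in single cells of the mouse ocular area at the lens placode stage. These 5 genes were taken by name from the 27998 genes counted in the libraries, and the cells were sorted into classes by marker genes that are not among them. The ocular area of 1 wild-type (WT) and 1 *Mab21l1*-null (KO) embryo of the C57BL/6J strain was sampled at the 26-somite stage (E9.25), and each library held both optic areas of its embryo. With 1 library per genotype there was no replicate check, so no test was made, and all intervals below are 95% intervals of counting error only. The KO allele is present in every cell of its embryo, so effects within the ectoderm and from the neighbouring optic vesicle cannot be told apart.

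The lens arises where head surface ectoderm touches the optic vesicle, the outgrowth of the forebrain that becomes the retina. The ectoderm thickens into the lens placode under the control of PAX6 and SIX3, and then invaginates. SOX2 acts with PAX6 early in this step, c-MAF and PROX1 later drive crystallin genes and fibre elongation, and PITX3 and FOXE3 are needed in the lens vesicle and its epithelium. SOX2 is also a general factor of neural progenitors, and c-MAF is a factor of macrophages.

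After cells were limited to 1500 to 8000 detected genes and at most 5% mitochondrial counts, the WT library kept 1680 cells and the KO library 2404, with medians of 21037 and 18135 unique molecular identifiers (UMIs, each standing for 1 captured transcript) per cell. The libraries shared 15 barcode sequences. *Mab21l1* RNA was counted in both libraries, with 849 UMIs over all WT cells, or 20.3 counts per 1000000 UMIs (CPM), and 1706 UMIs over all KO cells, or 32.5 CPM, so it did not mark the KO library. The direction differed between classes of cells. In optic vesicle it was higher in KO, with 572 UMIs in WT and 1272 in KO (29.9 and 52.3 CPM). In surface ectoderm it ran the other way, with 84 UMIs in WT and 25 in KO, as it did on few counts in neural ectoderm (13 and 8 UMIs). Which part of the gene the null allele lacks was not examined here. WT and KO below therefore mean the libraries labelled WT and KO, and every direction depends on these labels being right.

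Surface ectoderm cells carried at least 2 UMIs of *Epcam* and *Cdh1* summed (adhesion proteins of epithelia) and at least 2 of the keratins *Krt8* and *Krt18* summed, and met no other gate. This gave 51 WT cells holding 993064 UMIs (median 17929) and 38 KO cells holding 622028 UMIs (median 16032.5). Of 14 surface ectoderm markers, 13 were counted in the WT cells and 14 in the KO cells. All 8 neural ectoderm markers were at 0 in the KO cells, with 3 UMIs of 1 of them in the WT cells. The gates in part fix both results, since the 14 included the gate genes and cells with 2 or more of the 8 were set aside. Red blood cell RNA differed between the libraries in surface ectoderm cells and in other classes. The sum of 7 globin genes in WT and KO was 233 and 506 CPM in mesenchyme and 247 and 838 CPM in endothelium, but 415 and 426 CPM in optic vesicle. In surface ectoderm cells these genes summed to 176 CPM in WT and 402 CPM in KO, and the part of this in the results was not tested. The summed level of 7 optic vesicle markers was 229 CPM in WT and 233 CPM in KO. The sums hide opposite directions: of the 3 with at least 20 UMIs, 1 was lower in KO (ratio 0.639) and 2 were higher (up to 2.12). Cells with a UMI of each of *Pax6* and *Six3* are called placode-gated. They numbered 35 of 51 in WT and 22 of 38 in KO. In these cells 8 lens placode markers, among them *Pax6*, *Six3* and *Mab21l1*, summed to 1784 CPM in WT and 1080 CPM in KO. Of the 8, 7 were lower in KO, 1 of them at 0, and 1 was higher, with a median ratio of 0.613. The placode-gated cells of the libraries were therefore not alike in these markers. The marker list was drawn up with earlier results of these data known, including lower KO levels of some of its genes. That choice in part fixes the direction. Both gate genes were themselves lower in KO surface ectoderm, with KO/WT ratios of 0.771 for *Pax6* (261 and 126 UMIs) and 0.671 for *Six3* (207 and 87 UMIs), so that the gate may move with the genotype.

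The promoters of *Sox2* and *Pitx3* are shown because *Pitx3* gave the lowest ratio between the libraries in surface ectoderm and *Sox2*, often counted in the same cells, a ratio near 1. Each line is the 250 bases before the RefSeq start on GRCm38.p6, 5′ to 3′ on the gene's strand, chr3:34649745-34649994 (plus) for *Sox2* and chr19:46148326-46148575 (minus) for *Pitx3*, and capitals mark matches on either strand to 1 of 7 motifs.
Sox2: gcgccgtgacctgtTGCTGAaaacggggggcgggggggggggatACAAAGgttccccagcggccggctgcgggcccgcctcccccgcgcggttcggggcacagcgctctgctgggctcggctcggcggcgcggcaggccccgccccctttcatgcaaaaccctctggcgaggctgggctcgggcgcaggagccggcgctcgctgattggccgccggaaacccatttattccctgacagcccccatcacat
Pitx3: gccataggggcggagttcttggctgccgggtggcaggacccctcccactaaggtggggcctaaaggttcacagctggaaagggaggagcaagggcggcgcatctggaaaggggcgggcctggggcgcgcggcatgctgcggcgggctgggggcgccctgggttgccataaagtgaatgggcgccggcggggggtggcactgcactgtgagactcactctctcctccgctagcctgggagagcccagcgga
The motifs were the SOX motif ACAAAG, the SOX motif AACAAT, the PITX motif TAATCC, the MAF core motif TGCTGA, the FOX motif TAAACA, the homeobox motif TAATTA and the TATA box TATAAA. The *Sox2* window held TGCTGA 236 bases and ACAAAG 206 bases before the start, which do not overlap, and 16.1% and 16.5% of 32851 promoter windows of this length hold these motifs. The *Pitx3* window held none of the 7, which says only that these letters are not in it. RefSeq windows matched 4 of the 5 genes, and *Maf* is named only.

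*Sox2*, the early partner of PAX6, differed between the libraries in surface ectoderm by less than its counting error. The gene is a single exon at chr3:34650405-34652461 (GRCm38), inside an intron of the noncoding gene *Sox2ot* on the same strand. It was counted 69 times in the 51 WT cells, a level of 69.5 CPM [54.1, 87.9], and 40 times in the 38 KO cells, 64.3 CPM [45.9, 87.6]. The intervals overlapped, and the KO/WT ratio was 0.926 with an interval of 0.611 to 1.39, so a change within this range was not detectable at this depth. In placode-gated cells the levels were 93.1 CPM in WT and 93.0 CPM in KO, a ratio of 0.998 [0.650, 1.51]. Within WT the placode-gated cells stood against 3.80 CPM (1 UMI) in the other 16 surface ectoderm cells, and within KO against 13.4 CPM (3 UMIs) in the other 16. A level of 2 times or more in placode-gated over other ectoderm was found for 7.84% of genes in WT and 4.8% in KO. Of the ectodermal *Sox2* UMIs, 68 of 69 in WT and 37 of 40 in KO lay in placode-gated cells. The UMIs were less evenly spread over the KO cells: 23 of 35 placode-gated WT cells carried one, with at most 8 in a cell, and 10 of 22 KO cells, with 11 in the highest cell.

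*Maf*, which encodes the crystallin regulator c-MAF, was lower in the KO ectoderm. It has 3 exons at chr8:115682942-115707794 (GRCm38, minus strand). In surface ectoderm it was counted 154 times in WT, at 155 CPM [132, 182], and 34 times in KO, at 54.7 CPM [37.9, 76.4]. These intervals do not overlap, and the KO/WT ratio was 0.352 [0.236, 0.514]. Among all 7278 genes with at least 20 UMIs in this class, 3.09% had a ratio of 0.5 or less and 1.76% a ratio of 2 or more, with a median ratio of 0.991. All *Maf* UMIs of the ectoderm, in both libraries, lay in placode-gated cells, where the level was 211 CPM in WT and 85.4 CPM in KO, a ratio of 0.405 [0.271, 0.590]. In placode-gated cells 4.64% of 6224 genes had a ratio of 0.5 or less and 2.8% a ratio of 2 or more. Fewer cells carried *Maf* in KO, 12 of 22 against 26 of 35 in WT, and the carrying cells held fewer UMIs, with a median of 2 in KO and 6 in WT. When every cell was reduced at random to 10000 UMIs, with 2 shallower WT cells and 1 KO cell left out, 10 of 21 KO cells and 23 of 33 WT cells carried it, with medians of 2 and 3 UMIs. The highest KO cell held 8 UMIs of *Maf* and the highest WT cell 11. An antisense gene, *Gm15655*, overlaps 440 exonic bases of *Maf* and was at 0 in surface ectoderm of both libraries.

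*Pitx3*, a homeobox gene needed for the lens epithelium, gave the lowest KO/WT ratio of these genes. It has 5 exons at chr19:46135685-46148326 (GRCm38, minus strand), with its promoter shown above. It was counted 41 times in WT surface ectoderm, at 41.3 CPM [29.6, 56.0], and once in KO, at 1.61 CPM [0.0407, 8.96]. The ratio was 0.0389, with an interval of 0.000963 to 0.229 that is wide because it rests on 1 KO UMI. That UMI lay in a cell with 19858 UMIs in all, which also carried 3 UMIs of *Sox2* and 6 of *Maf*. In WT the 41 UMIs were spread over 18 of the 35 placode-gated cells, with 6 in the highest, whereas 1 of 22 KO cells carried the gene. Over all cells it was counted 59 times in WT and 9 times in KO, a ratio of 0.122 [0.0531, 0.247]. Surface ectoderm made up 3.04% of WT and 1.58% of KO cells, and the part of this in the ratio over all cells was not tested. Cells that met both the ectoderm and the optic vesicle gate, which were set aside, held 6 of the WT and 3 of the KO UMIs of *Pitx3*, in 2 of 15 and 3 of 12 cells. With every ectoderm-gated cell that met any other gate kept in the class (68 WT and 53 KO cells, 51 and 4 UMIs), the ratio was 0.103.

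*Foxe3*, a forkhead gene of the lens epithelium, was counted once in all filtered cells, in a WT optic vesicle cell, and not in surface ectoderm of either library. A count of 0 is read throughout as allowing up to 3 counts, which here gives 3.02 CPM in WT and 4.82 CPM in KO, so no ratio is given. This limit is simpler and lower than the upper end of the exact interval, here 3.71 CPM in WT and 5.93 CPM in KO. The GENCODE model at chr4:114925147-114926013 (GRCm38, minus strand) is 867 bases of coding sequence and stop codon with 0 untranslated bases, while the RefSeq gene ends 704 bases further 3′. The kit captures 3′ ends, and whether *Foxe3* reads fell beyond the gene model that the authors counted was not tested. For the other genes with such an extension, the RefSeq end of *Pitx3* lay 404 bases beyond its GENCODE end.

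*Prox1*, which drives fibre differentiation later in the lens, was near the limit of counting. It has 6 exons at chr1:190118035-190170714 (GRCm38, minus strand). There were 8 UMIs in WT surface ectoderm, 8.06 CPM [3.48, 15.9], and 5 in KO, 8.04 CPM [2.61, 18.8]. The ratio was 0.998 with an interval of 0.257 to 3.46, and a change within that range was not detectable at this depth. All of these UMIs lay in placode-gated cells, 6 of 35 in WT and 3 of 22 in KO, at 11.0 and 12.6 CPM. The 0 counts in the other ectoderm cells allow up to 11.4 CPM in WT and 13.4 CPM in KO. A difference between placode-gated and other ectoderm was thus not detectable for *Prox1*. Red blood cells, a class outside the lens, carried a *Prox1* UMI in 5 of 36 WT and 5 of 49 KO cells at median depths of 32480.5 and 33437 UMIs against 17929 and 16032.5 in ectoderm, shares of 13.9% and 10.2% beside 11.8% and 7.89% of ectoderm cells. On thinned UMIs the ectoderm shares were 2.08% in WT (1 of 48 cells) and 8.33% in KO (3 of 36), beside 2.78% and 2.04% of red blood cells, with overlapping intervals. Mesenchyme, at median depths of 18972 and 15682.5 UMIs, carried *Prox1* in 5 of 499 WT and 5 of 762 KO cells, and the ectoderm level lay 11.0-fold [3.47, 35.5] above that of mesenchyme in WT and 19.9-fold [4.59, 86.6] in KO.

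**Figure D1:**
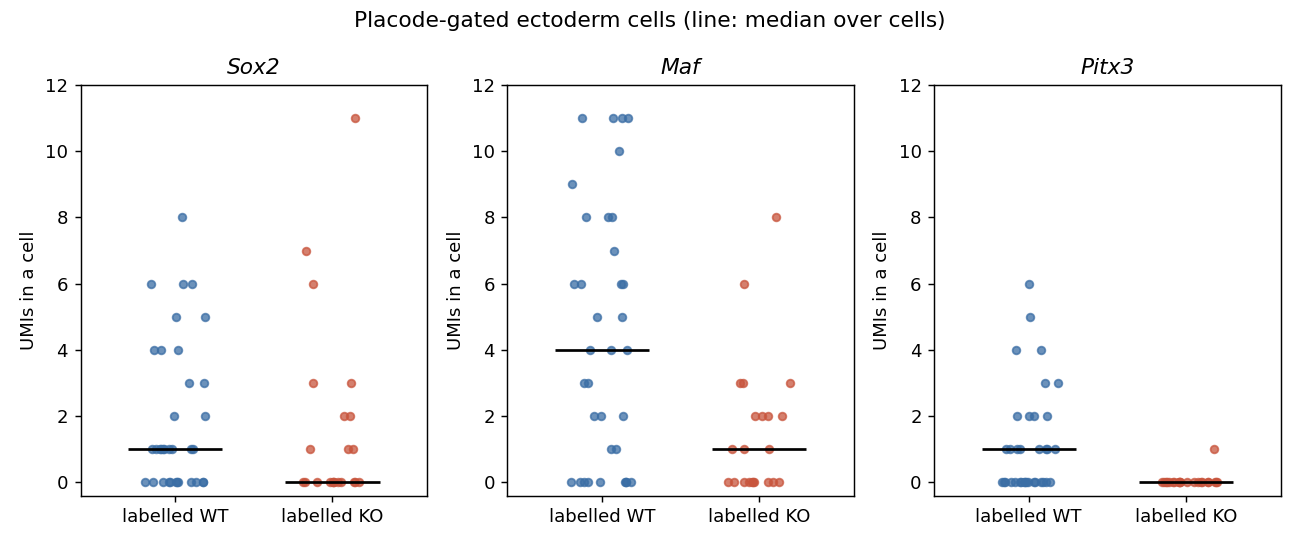
UMIs of *Sox2*, *Maf* and *Pitx3* (y axis) in each placode-gated surface ectoderm cell of the library labelled WT (35 cells) and KO (22 cells); each point is 1 cell and the black line is the median over cells. *Pitx3* reaches 6 UMIs in WT and 1 in KO, and the median of *Maf* is 4 in WT and 1 in KO.

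For these genes as a group, shares of surface ectoderm cells with a UMI were set beside red blood cells. *Sox2* was detected in 47.1% [32.9, 61.5] of WT and 34.2% [19.6, 51.4] of KO ectoderm cells, against 1 of 36 and 4 of 49 red blood cells. *Maf* was detected in 51.0% [36.6, 65.2] and 31.6% [17.5, 48.7] of ectoderm cells, against 1 of 36 and 0 of 49 red blood cells, a 0 that allows a share of up to 6.12%. *Pitx3* was detected in 35.3% [22.4, 49.9] and 2.63% [0.0666, 13.8] of ectoderm cells and in no red blood or endothelial cell of either library; for 36 WT and 49 KO red blood cells this allows up to 8.33% and 6.12%. The KO share of *Pitx3* lay within what those 0 counts allow. Larger classes set a lower background for *Pitx3* in KO, with 2 of 918 optic vesicle cells (0.218% [0.0264, 0.785]) and 0 of 762 mesenchyme cells (up to 0.394%), and the interval of the KO ectoderm share, which rests on 1 cell, includes these values. On thinned UMIs the shares were 37.5% and 25.0% for *Sox2*, 47.9% and 27.8% for *Maf* and 22.9% and 2.78% for *Pitx3*. The KO ectoderm had the lower share for each of these 3 genes at both depths, while the intervals of *Sox2* and of *Maf* overlapped between the libraries and those of *Pitx3* did not on all UMIs but did on thinned UMIs.

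In the WT placode-gated cells, *Sox2*, *Maf* and *Pitx3* were often found in the same cells. All 3 were present in 15 of 35 WT cells (42.9%) and in 1 of 22 KO cells (4.55%). After thinning this was 9 of 33 and 1 of 21. At either depth 1 KO cell carried *Pitx3*, so the KO count of all 3 could not exceed 1 whatever the joint detection. Of the 18 WT cells with *Pitx3*, 16 (88.9%) also had *Maf*, against 10 of 17 (58.8%) without *Pitx3*, and 16 also had *Sox2*, against 7 of 17. Depth was not higher in the WT cells with *Pitx3*, whose median was 18670 UMIs against 19940 without it. Cells with *Sox2* were deeper, with medians of 19940 against 17403 UMIs in WT and 19314 against 15990.5 in KO. Those with *Maf* were shallower in WT (18670 against 23227) and deeper in KO (18768 against 16795). *Sox2* and *Maf* were found together in 19 of 35 WT cells and 8 of 22 KO cells, so that most cells with *Sox2* also had *Maf* in both libraries (82.6% and 80.0%). Among KO cells without *Sox2*, 4 of 12 had *Maf*, and among such WT cells 7 of 12. Counted per cell, 18 of 35 WT cells carried 3 or 4 of the 5 genes and 4 carried none, while 2 of 22 KO cells carried 3 or 4 and 8 carried none. With *Foxe3* at 0, a KO cell could reach 3 only with *Pitx3* (1 cell) or *Prox1* (3 cells), which limits that count. No cell carried all 5. All UMIs of each cell enter these counts, and genes detected together share the depth of their cell, so the shares are a description.

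**Figure D2:**
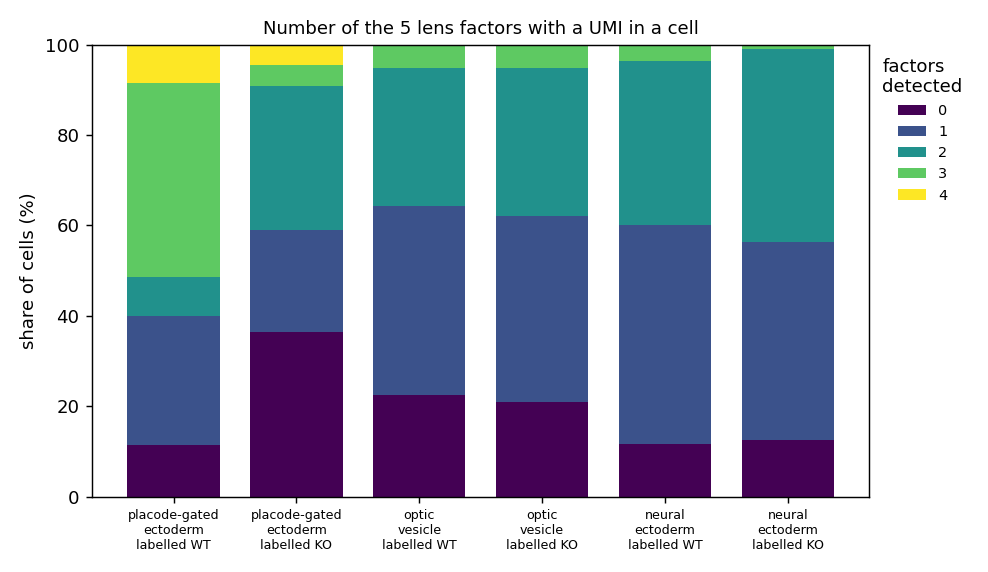
Share of cells (y axis, %) by the number of the 5 lens factors with at least 1 UMI in the cell, for placode-gated ectoderm, optic vesicle and neural ectoderm of each library. In placode-gated ectoderm the share of cells with 3 factors is 42.9% in WT and 4.55% in KO, while both optic vesicle bars are near 5% (5.06% and 5.23%). The KO share in placode-gated ectoderm is limited by the 1 cell with *Pitx3* and the 3 cells with *Prox1*.

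Across the classes each gene had its own pattern. With surface ectoderm taken whole, *Sox2* was highest in neural tissue: in WT its levels were 86.7 CPM in neural ectoderm, 69.8 CPM in optic vesicle, 69.5 CPM in surface ectoderm and 66.1 CPM in neural crest, 4 neighbours in order whose intervals overlap one another, before a drop to 2.83 CPM in mesenchyme. In KO the order was optic vesicle (82.7 CPM), neural ectoderm (80.3 CPM), surface ectoderm (64.3 CPM) and neural crest (37.4 CPM), again with overlapping neighbours. The placode-gated cells alone stood above these values, at 93.1 CPM [72.3, 118] in WT and 93.0 CPM [65.5, 128] in KO, with intervals that overlap those of neural ectoderm and optic vesicle. The optic vesicle, which has the most UMIs, gave a *Sox2* ratio of 1.19 [1.11, 1.27] and the neural crest 0.566 [0.298, 1.03]. The optic vesicle interval, which covers counting error but not differences between cells or embryos, lies above 1.

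With surface ectoderm taken whole, *Maf* was highest in macrophages of both libraries, at 199 CPM [165, 237] in 17 WT cells and 181 CPM [125, 252] in 6 KO cells. The WT placode-gated cells alone, at 211 CPM [179, 247], overlapped the macrophages. Surface ectoderm as a whole came next, and in WT it lay 6.17-fold [5.11, 7.41] above optic vesicle and 3.34-fold [2.54, 4.42] above neural ectoderm. In KO it lay 1.94-fold [1.33, 2.74] above optic vesicle, and its 1.33-fold [0.860, 2.03] difference from neural ectoderm was within counting error. Of all genes tested, 11.7% in WT and 11.5% in KO were at 2 times or more in surface ectoderm over optic vesicle. Intervals of the *Maf* ratio included 1 in the other classes with many UMIs, with values of 1.12 [0.996, 1.26] in optic vesicle, 0.882 [0.634, 1.22] in neural ectoderm, 0.787 [0.575, 1.08] in mesenchyme and 0.908 [0.602, 1.34] in macrophages. In optic vesicle 0.596% of 12927 genes had a ratio of 0.5 or less and 0.944% a ratio of 2 or more. The 6 macrophage markers summed to 3 UMIs in WT and 0 in KO surface ectoderm, from which cells with 3 or more of them were set aside. Over all cells the *Maf* ratio was 0.858 [0.791, 0.930]. It mixes classes whose shares differ between the libraries, such as macrophages at 1.01% of WT and 0.250% of KO cells.

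*Pitx3* was nearly confined to surface ectoderm in WT, where 41 of the 59 UMIs lay, with 3 in optic vesicle, 1 in mesenchyme and 0 in neural ectoderm, neural crest, endothelium, red blood cells and macrophages. A further 10 WT UMIs were in cells that met more than 1 gate and 4 in cells that met none. The WT ectoderm level was 263-fold [84.0, 1329] that of optic vesicle, a ratio that rests on 3 optic vesicle UMIs. In KO the ectoderm level could not be separated from that of neural ectoderm (1 UMI) or optic vesicle (2 UMIs), whose intervals overlapped it.

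*Prox1* was at a low level in each class where it was counted. It was at 0 in neural crest of both libraries (31 WT and 27 KO cells) and in the 6 KO macrophages, few cells in each case. In WT its highest levels were 8.06 CPM in surface ectoderm and 7.94 CPM in neural ectoderm. In KO they were 8.43 CPM in neural ectoderm and 8.04 CPM in surface ectoderm. Neighbours in order overlapped in WT. They also did in KO, except endothelium (2.68 CPM [0.985, 5.84]) above mesenchyme (0.403 CPM [0.131, 0.941]). In optic vesicle *Prox1* was counted 80 times in WT and 124 times in KO, 4.18 and 5.10 CPM, a ratio of 1.22 [0.913, 1.64]. The antisense gene *Prox1os* shares 133 exonic bases with it and was at 0 UMIs in WT and 1 UMI in KO surface ectoderm.

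**Figure D3:**
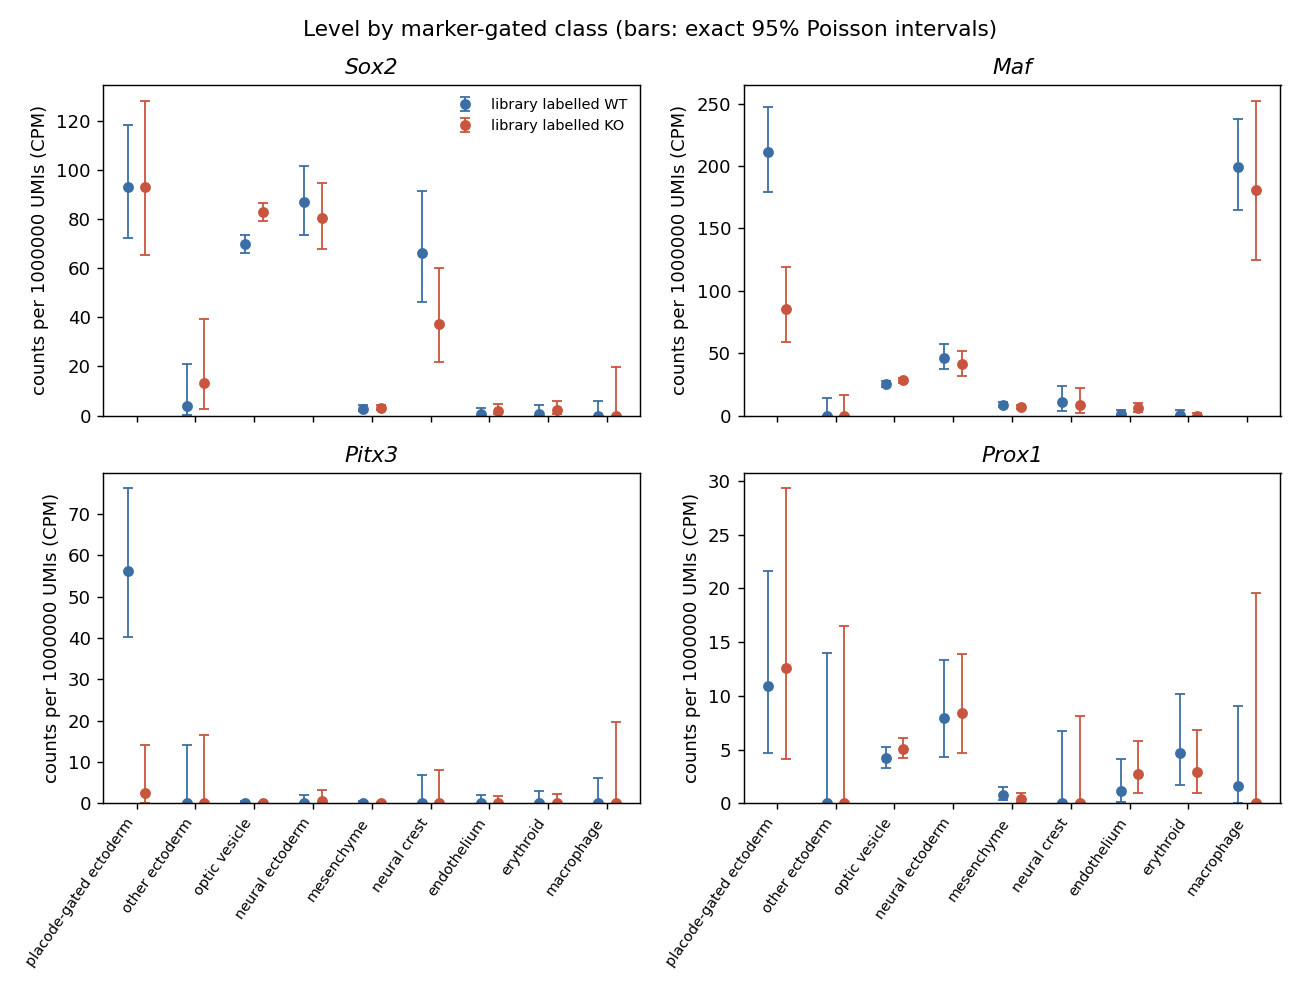
Level in counts per 1000000 UMIs (CPM, y axes with their own scale) of *Sox2*, *Maf*, *Pitx3* and *Prox1* in placode-gated ectoderm, other surface ectoderm and 7 other marker-gated classes, for the libraries labelled WT (blue) and KO (red); bars are exact 95% Poisson intervals. *Maf* and *Pitx3* are lower in KO in placode-gated ectoderm, at 85.4 against 211 CPM and 2.51 against 56.2 CPM, while *Sox2* is at 93.0 against 93.1 CPM.

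**Figure D4:**
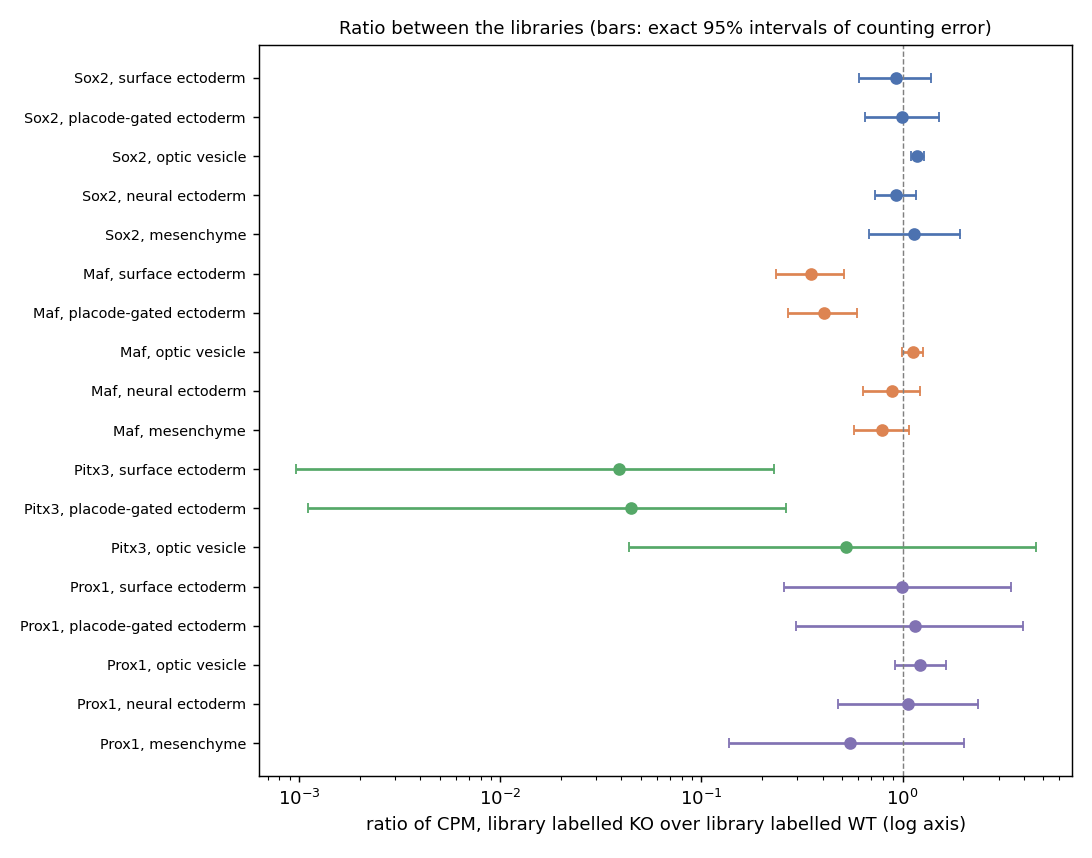
KO/WT ratio of CPM (log x axis) of *Sox2*, *Maf*, *Pitx3* and *Prox1*, with exact 95% intervals of counting error. Shown are surface ectoderm, placode-gated ectoderm, optic vesicle, neural ectoderm and mesenchyme, where both libraries had UMIs of the gene. The other classes are not drawn. The dashed line marks equal levels. The surface ectoderm ratios are 0.926 for *Sox2*, 0.352 for *Maf*, 0.0389 for *Pitx3* and 0.998 for *Prox1*.

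Other genes of the lens network were read from a list of 31, of which 25 had at least 20 UMIs in surface ectoderm. At least a 2-fold lower level in KO was found for *Mab21l1*, with 84 UMIs in WT and 25 in KO (ratio 0.475 [0.291, 0.750]), and for *Sfrp2*, a secreted WNT modulator, with 516 and 98 UMIs (0.303). At least a 2-fold higher level was found for *Mab21l2*, the paralog of *Mab21l1*, with 10 and 16 UMIs (2.55), for *Gata3* with 21 and 28 UMIs (2.13) and for *Dlx5*, a homeobox gene of non-lens placodes, with 24 and 38 UMIs (2.53). The other 20 lay within 2-fold, and the list median was 0.976 beside 0.991 over all genes tested. Of all 7278 genes tested, 3.09% had a ratio of 0.5 or less and 1.76% a ratio of 2 or more. Of the 5 most counted members, *Sfrp2* was lower as given, and *Cdkn1c*, a cell cycle inhibitor, stood at a ratio of 0.887, *Meis2* at 1.04, *Pax6* at 0.771 and *Meis1* at 1.27.

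Close relatives of the lens factors gave few counts. Of 8 paralogs, *Pitx1*, a homeobox gene of oral and olfactory ectoderm, alone had at least 20 UMIs. Its level was higher in KO, with 31 and 35 UMIs, 31.2 and 56.3 CPM, a ratio of 1.80 [1.08, 3.02]. The share of cells with *Pitx1* was not higher, at 20 of 51 in WT and 12 of 38 in KO, and the highest KO cell held 9 UMIs. In placode-gated cells its ratio was 1.33, with an interval that included 1. *Sox1*, *Sox3*, *Mafa*, *Nrl*, *Foxe1* and *Prox2* were at 0 in surface ectoderm of both libraries. Among 16 crystallin genes, *Cryab*, which is also a general stress chaperone, was counted 103 times in WT and 107 times in KO, 104 and 172 CPM, a ratio of 1.66 [1.25, 2.19], and no other reached 20 UMIs. All 16 together had 128 UMIs in WT and 113 in KO, so the few UMIs outside *Cryab* ran the other way, at a lower level in KO. In placode-gated cells the *Cryab* ratio was 1.39, with an interval that included 1. Of 10 genes of olfactory and other placodal ectoderm, 4 reached 20 UMIs, and their median was 1.52. Of these 4, 1 (*Dlx5*) was past 2-fold, beside 1.76% of all genes tested at 2 times or more.

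Genes with the class pattern most like each factor were ranked by Pearson correlation of log2(CPM + 1) over 16 points, the 8 classes of each library, which share libraries and depth. For *Sox2* these were *Bicd1* (r = 0.983), *Hist3h2ba* (0.970) and *Rnf208* (0.968). For *Maf* they were *Rnls* (0.910), *Bri3bp* (0.909) and *Sema4d* (0.900). For *Pitx3* they were *Arhgap27os2* (0.922), *4631405K08Rik* (0.888) and *Cxcl14* (0.880). For *Prox1* they were *Adgrg1* (0.866), *Ube2j1* (0.844) and *Serinc2* (0.825). The 3 genes with the pattern of *Pitx3* were, like it, less counted in KO surface ectoderm, with 29 UMIs in WT and 6 in KO for *Arhgap27os2*, 74 and 20 for *4631405K08Rik* and 58 and 0 for *Cxcl14*, which the choice by likeness over both libraries in part fixes.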

How the data were processed

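Per the labels, 1 embryo of each genotype gave 1 single-cell library, made with a 10x Chromium 3′ kit. The authors counted UMIs with Cell Ranger on mm10 (GRCm38) and deposited whole-number UMI counts per gene and cell, not scaled. Per the study's methods, Cell Ranger aggr joined both libraries, a step that may reduce reads to even depth. Counts were summed per library and class and divided by the class total. Poisson intervals, conditional binomial intervals of ratios and Clopper-Pearson intervals are exact at 95% and cover counting error only. Those of levels and ratios take summed UMIs as independent counts and so leave out spread between cells. Classes were gated on detected markers: optic vesicle (*Rax* and *Lhx2*), neural ectoderm (2 of 8 markers), mesenchyme (3 of 6), neural crest (*Sox10* and 2 of 4), endothelium (3 of 5), red blood cells (at least 10% of UMIs on 7 globin genes) and macrophages (3 of 6). Cells meeting several gates (86 in WT, 104 in KO), among them likely doublets, or none (183 and 313) were set aside. Named are the 5 factors, the 3 genes most like each (12932 genes with at least 50 UMIs), listed paralogs and crystallins with at least 20 UMIs, and lens network genes past 2-fold or among the 5 most counted; the paralogs at 0 and the reference to *Dlx5* as a placodal gene were added after their values were seen. The factors and lists were chosen with earlier results of these data known, and 1 listed gene is not reported here. The mitochondrial limit was read as 5% where the methods write 0.05%. Alternatives were other gates, filters, doublet removal, scalings, cell weights and thinning. The computation of ratios and intervals was tested on simulated class sums. These were drawn as independent counts with no spread between cells, so they cannot show how the intervals behave with such spread. Gene models are from GENCODE M21, whose release may differ from that used for counting; 27645 of 27998 identifiers matched. Python 3.11.15, numpy 2.4.6, scipy 1.17.1, pandas 2.3.3, scanpy 1.11.5 (Scrublet), matplotlib 3.10.9, R 4.3.3 and edgeR 4.0.16 (TMM factors only) were used.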

Additional observations from a re-analysis of the deposited data

Results flagged for a closer look

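The KO/WT ratio of *Maf* lay on opposite sides of 1 in 2 classes: 0.352 in surface ectoderm and 5.09 [1.15, 46.5] in endothelium, where it was counted 2 times in WT and 13 times in KO, in 2 of 60 and 9 of 91 cells. The difference between the classes was not tested.

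*Prox1* was higher in KO among cells that met no gate, which enter no comparison above, with a ratio of 3.47 [1.45, 10.1]. It was counted 6 times in 5 of 183 WT cells and 36 times in 27 of 313 KO cells, 2.21 and 7.65 CPM, and the highest KO cell held 6 UMIs. The kinds of cell among them were not resolved.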

How the results depend on the processing

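Of 88 alternative values of the KO/WT ratios, 86 lay within the counting interval of the reported ratio. Some alternatives could hardly move a ratio: doublet removal took 0 surface ectoderm cells, and other scalings shifted their log2 ratios by -0.00506 and -0.00293. Wide intervals also hold large moves, as that of *Prox1* in surface ectoderm, 0.257 to 3.46, holds a ratio of 2. The count is therefore a description and not a measure of stability. Without the highest cell of each library the *Pitx3* ratio became 0 in surface ectoderm and in placode-gated cells, since the 1 KO UMI was removed. In surface ectoderm the ratio ranged from 0.750 to 1.07 for *Sox2*, 0.267 to 0.428 for *Maf*, 0 to 0.103 for *Pitx3* (the highest with cells of several gates kept) and 0.908 to 2 for *Prox1* (the highest on thinned UMIs). Thinning moved the WT share of cells with *Prox1* from 11.8% to 2.08%, and the rank of surface ectoderm from 3 to 4 for *Sox2* in KO, from 1 to 2 for *Prox1* in WT and from 2 to 1 in KO. With no minimum of UMIs, genes at or below 0.5 and at or above 2 numbered 4 and 5 for the lens network, 5 and 2 for crystallins and 1 and 4 for other placodal ectoderm, and the shares over all genes rose to 16.7% and 10.4%. With a minimum of 200 UMIs, 2 of the 3 genes most like *Maf* and 0 of the 3 most like *Pitx3* were found again. The genes not found again had 136 UMIs (*Rnls*) and 59, 95 and 100 UMIs (those of *Pitx3*), so this minimum left them out whatever their correlation. No replicate could be left out, as each genotype has 1 library. No paired analysis was possible because the labels give 1 sample per genotype and no replicate numbers.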
